A study of Homo sapiens with 6 samples.

Results

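The band 19q13.43, at the end of the long arm of chromosome 19, carries a dense array of genes for C2H2 zinc finger proteins. RNA levels of these genes were compared between the colorectal cancer line HCT116, an established human line, and DKO1, its derivative carrying knockouts of 2 DNA methyltransferase genes, DNMT1 and DNMT3B. The members were 47 named zinc finger genes of the band, named from the clusters of the band with earlier results of these data known, by a rule that uses no measured value. Of these, 46 were matched by Ensembl identifier among the 57820 human genes of the deposited table, silent ones included, and ZNF8 was not analysed here. The samples were 3 of parental HCT116 (WT) and 3 of DKO1, grown in the same serum-supplemented medium, and DKO1 is 1 derived line. Other differences between the lines therefore cannot be told apart from the knockouts of the 2 genes, and enzyme activity was not measured here. Whether the replicates were grown as separate cultures is not stated, and the p-values thus reflect only how far these 6 samples scatter, possibly for technical reasons. In bulk RNA, a change in every cell and a change in some of the cells cannot be told apart.

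Most zinc finger genes of this kind encode KRAB zinc finger proteins. The fingers recognise DNA, often in transposable elements, and the KRAB domain recruits the corepressor TRIM28, which brings the H3K9 methyltransferase SETDB1 and heterochromatin proteins. A few members carry a SCAN domain, which mediates pairing of such proteins, and ZNF274 carries both domains. Promoters of several genes of this band, among them ZNF582, ZNF671, ZNF154, ZNF471, ZNF667 and ZSCAN18, have been described as methylated in human tumours, and DNMT1 is the enzyme that copies methylation to the new DNA strand.

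Levels are TPM, transcript abundance corrected for transcript length and scaled to a common total, which can be compared between genes. A gene was called silent where it was below 0.1 TPM in every sample of a group and expressed where it was at 1 TPM or above in every sample. Differences were tested with limma on log2(TPM + 1) over the 13604 genes that reached 1 TPM in 3 or more samples, with Benjamini-Hochberg adjustment and a call at an adjusted p below 0.05. On this scale the change of low genes is understated. TPM keeps no record of depth, so no counting interval is given.

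DNMT1 and DNMT3B act on CpG sites, and no methylation values of these promoters are used here. The promoters of 7 members are printed because they span the behaviours described below. ZIK1, ZNF256 and ZNF549 were silent in WT and expressed in DKO1, ZNF671 was silent in WT and stayed below 1 TPM in DKO1, ZNF154 and ZSCAN4 were silent in both lines, and ZNF587 was expressed in both. Each sequence is the 250 bases before the annotated start, 5′ to 3′ on the strand of the gene, from RefSeq on GRCh38.p14, with every CpG in capitals. In that build ZIK1 is at chr19:57583895-57584144, plus strand, and ZNF256 is at chr19:57947707-57947956, minus strand. ZNF549 is at chr19:57527106-57527355, plus strand, and ZNF671 is at chr19:57727625-57727874, minus strand. ZNF154 is at chr19:57709205-57709454, minus strand, ZNF587 is at chr19:57849609-57849858, plus strand, and ZSCAN4 is at chr19:57668685-57668934, plus strand.
ZIK1: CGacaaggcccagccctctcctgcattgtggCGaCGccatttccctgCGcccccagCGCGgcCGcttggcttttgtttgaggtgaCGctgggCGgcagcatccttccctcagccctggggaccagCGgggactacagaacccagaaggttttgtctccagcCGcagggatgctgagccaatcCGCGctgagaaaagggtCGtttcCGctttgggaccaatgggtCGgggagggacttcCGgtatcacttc
ZNF256: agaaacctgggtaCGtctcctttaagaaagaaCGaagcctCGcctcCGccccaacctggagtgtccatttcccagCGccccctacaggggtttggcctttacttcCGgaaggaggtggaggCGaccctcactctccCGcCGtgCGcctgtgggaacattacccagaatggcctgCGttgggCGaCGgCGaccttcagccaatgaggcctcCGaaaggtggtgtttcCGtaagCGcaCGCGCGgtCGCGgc
ZNF549: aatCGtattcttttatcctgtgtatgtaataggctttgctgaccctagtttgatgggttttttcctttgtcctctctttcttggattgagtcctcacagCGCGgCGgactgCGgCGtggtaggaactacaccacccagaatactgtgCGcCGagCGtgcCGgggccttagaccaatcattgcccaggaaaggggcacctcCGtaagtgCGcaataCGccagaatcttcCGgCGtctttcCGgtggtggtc
ZNF671: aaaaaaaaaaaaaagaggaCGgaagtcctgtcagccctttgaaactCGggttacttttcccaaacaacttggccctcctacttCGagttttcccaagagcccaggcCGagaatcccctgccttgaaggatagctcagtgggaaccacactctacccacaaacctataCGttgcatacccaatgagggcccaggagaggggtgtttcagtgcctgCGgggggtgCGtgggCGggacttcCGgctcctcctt
ZNF154: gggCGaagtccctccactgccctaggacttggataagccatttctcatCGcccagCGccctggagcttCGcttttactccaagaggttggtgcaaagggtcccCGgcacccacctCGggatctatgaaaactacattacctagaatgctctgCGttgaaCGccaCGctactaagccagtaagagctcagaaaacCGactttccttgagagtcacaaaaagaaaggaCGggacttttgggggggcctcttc
ZNF587: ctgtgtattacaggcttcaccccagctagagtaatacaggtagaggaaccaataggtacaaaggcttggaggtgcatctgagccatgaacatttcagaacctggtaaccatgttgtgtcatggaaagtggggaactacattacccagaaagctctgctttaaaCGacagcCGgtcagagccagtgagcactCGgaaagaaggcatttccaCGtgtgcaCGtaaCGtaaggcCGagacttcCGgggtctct
ZSCAN4: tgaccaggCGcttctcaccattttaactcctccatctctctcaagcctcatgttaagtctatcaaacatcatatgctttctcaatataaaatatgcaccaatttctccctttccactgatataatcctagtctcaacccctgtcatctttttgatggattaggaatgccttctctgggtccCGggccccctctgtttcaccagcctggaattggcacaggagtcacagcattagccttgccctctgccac
The ZNF256 stretch held 22 CpG and that of ZIK1 17. ZNF549 had 16, ZNF154 11, ZNF671 9 and ZNF587 8, whereas ZSCAN4 had 2. Among these 7, the promoter of ZNF587 was poorer in CpG than those of the 3 released genes, and that of ZSCAN4 was the poorest. ZNF587 is the only printed gene that was expressed in WT, and it does not stand for that class. In the longer windows described below it held 12 CpG, the lowest count among members expressed in WT (12 to 31, median 20). The 8 members silent in WT and expressed in DKO1 held 13 to 36 there (median 25.5), so the ranges overlapped.

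The samples were checked through the targeted genes first. DNMT1 was at 245, 250 and 231 TPM in WT and at 31.1, 30.8 and 46.8 TPM in DKO1, and DNMT3B at 8.22, 7.09 and 6.77 against 4.86, 4.85 and 3.56 TPM. Both were called lower (limma adjusted p = 3.59e-05 and 0.03), although leaving out DKO1 replicate 1 or any one WT replicate ended the call of DNMT3B (0.0535 to 0.11), as did removing the rows of mitochondrial genes and spike-ins (0.0684). Transcripts of a disrupted allele still count toward TPM, which makes this a partial check of the labels. Of 8 colorectal epithelial markers, EPCAM was at 371 to 536 TPM in all samples and VIL1 at 0.43 TPM or below. Of the 7 that were tested, CDH1 (WT mean 2.97, DKO1 mean 9.82 TPM) and ELF3 (WT mean 0.653, DKO1 mean 6.15 TPM) were called higher, and 5 were not called. ELF3 was below 1 TPM in every WT sample and was tested only through its DKO1 levels. Of all tested genes, 18.8% were called higher and 9.6% lower. Among the 5 markers without a call, KRT8 had means of 382 TPM in WT and 219 TPM in DKO1 with separate groups (limma adjusted p = 0.0543). Summed over 6 fibroblast and over 6 blood markers, levels were 1.03 to 1.42 and 0.24 to 0.35 TPM in WT and 2.99 to 3.37 and 3.43 to 3.72 TPM in DKO1, with HBB at 0 throughout. The part of these markers in the results was not tested. Mitochondrial transcripts held 19.7% to 20.1% of the TPM in WT and 26.9%, 27.7% and 21.2% in DKO1 replicates 1, 2 and 3.

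More genes of the array were expressed in DKO1 than in the parental line. Of the 46 genes, 20 were silent in WT, 10 of them listed at exactly 0 in all 3 WT samples, and 24 were expressed. The remaining pair, ZNF550 and ZNF530, lay in between. In every WT sample 24 genes reached 1 TPM, against 35, 36 and 35 genes in DKO1 replicates 1, 2 and 3. Over all human genes this number was also higher in DKO1, at 13327 to 14419 per sample against 12110 to 12465 in WT. The summed level of the 46 genes was 176, 174 and 186 TPM in WT and 321, 336 and 392 TPM in DKO1, so the groups did not overlap. Of the DKO1 sums, the 20 genes silent in WT gave 58.1, 60.9 and 67.7 TPM, and the 24 genes expressed in WT gave 246, 258 and 305 TPM against 176, 173 and 185 TPM in WT. Both classes thus had higher sums in every DKO1 sample.

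**Figure D1:**
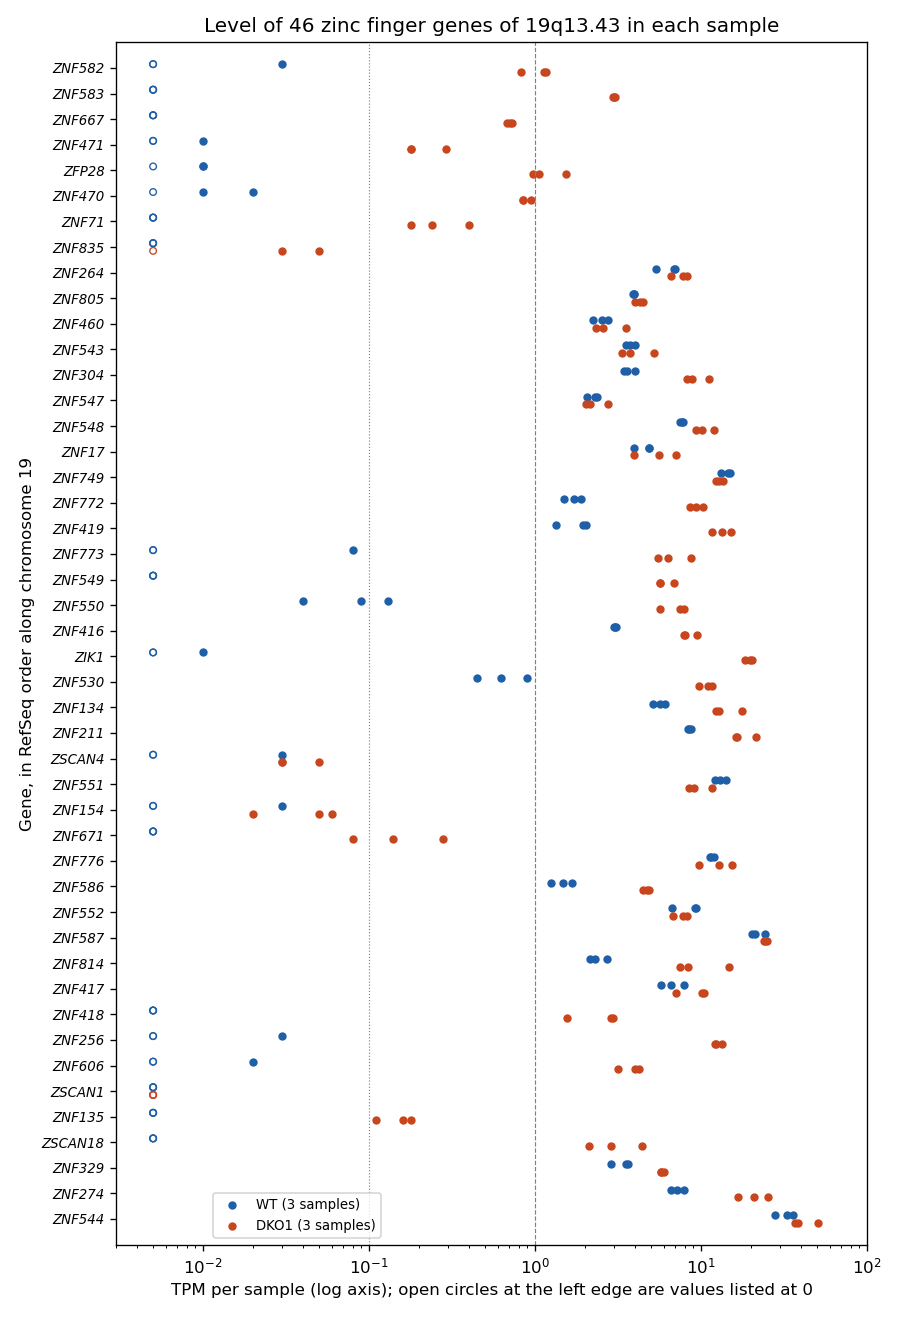
TPM of each of the 46 genes in each of the 6 samples, on a log axis, with genes in RefSeq order along chromosome 19 from top to bottom; filled points are samples (WT blue, DKO1 orange-red), open circles are values listed at 0, and the lines mark 0.1 and 1 TPM. The top 8 genes and a group near the bottom have all WT points below 0.1 TPM, and for most of them the DKO1 points lie far to the right.

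**Figure D2:**
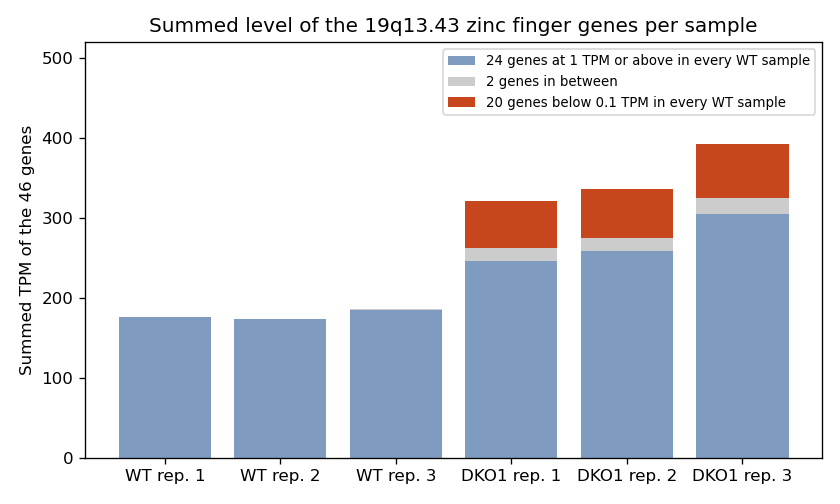
Summed TPM of the 46 genes in each sample, stacked by the level of the genes in WT. The 3 DKO1 bars stand at 321 to 392 TPM and the 3 WT bars at 174 to 186 TPM, and genes silent in WT make up 58.1 to 67.7 TPM of the DKO1 bars.

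Every DKO1 sample lay above every WT sample for 31 of the 46 genes, and below for 1, ZNF551. Among all human genes these shares were 13.3% above and 4.73% below, and among protein-coding genes 28.3% were above. In the test, 34 genes passed the filter on low values, of which 20 were called higher and 0 lower in DKO1, against 18.8% higher and 9.6% lower of all tested genes. At an unadjusted limma p below 0.05, 21 were higher and 1, ZNF551, was lower. Of the 34 tested members, 18 were called with a log2 fold change of 1 or more, against 10% of all tested genes. Because genes silent in WT pass the filter only where they are high in DKO1, that count is given as a description, and the silent and the expressed genes are taken apart in what follows. Across every tested gene the log2 fold change had a median of 0.07. Over all tested genes 2558 were called higher and 1306 lower, and 1817 and 1939 after quantile normalization.

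**Figure D3:**
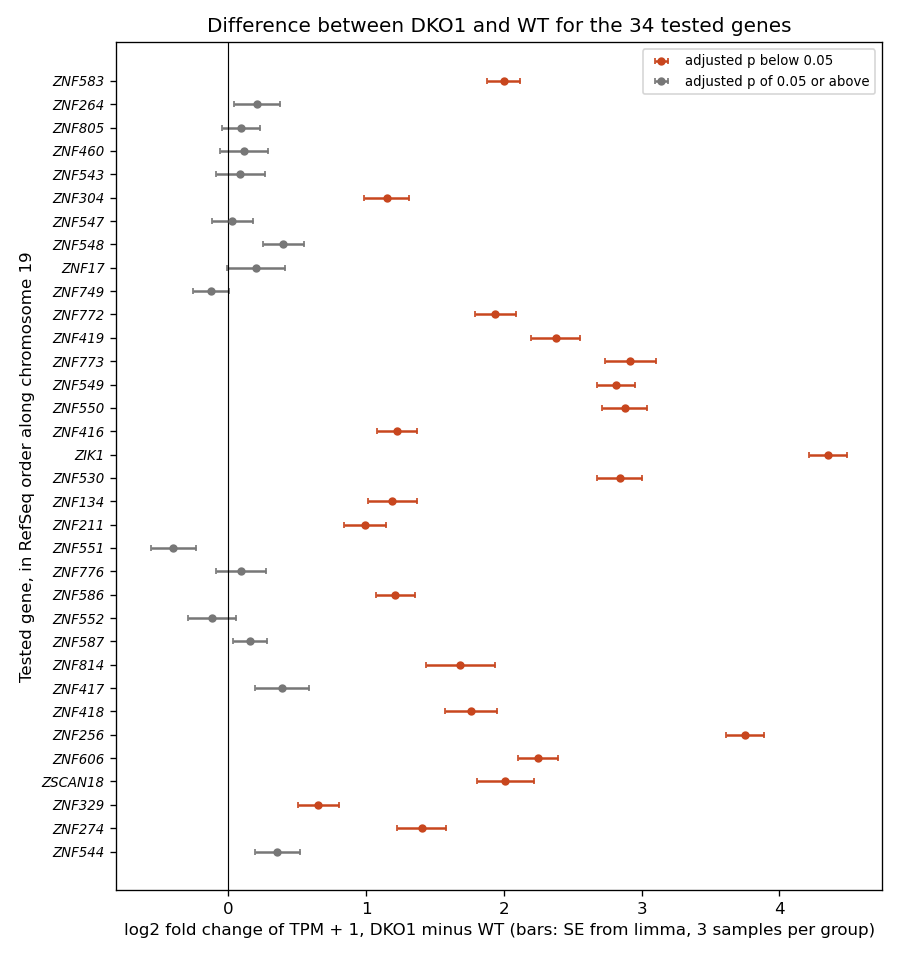
Log2 fold change of TPM + 1 (DKO1 minus WT) with the standard error from limma for the 34 tested genes, in RefSeq order along chromosome 19; orange marks an adjusted p below 0.05. All 20 called genes lie to the right of 0, led by ZIK1 at 4.36 and ZNF256 at 3.75, and ZNF551 lies farthest to the left at −0.40 without a call.

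Among the 20 genes silent in WT, 8 were expressed in every DKO1 sample. ZIK1, whose protein was found as a partner of the RNA-binding protein hnRNP K, was listed at 0.01, 0 and 0 TPM in WT and stood at 19.9, 18.4 and 20.4 TPM in DKO1. No other member that was silent in WT reached this level (log2 fold change 4.36, SE 0.14, adjusted p = 5.25e-06). ZNF256 went from 0.03, 0 and 0 TPM to 12.14, 13.36 and 12.3 TPM (log2 fold change 3.75, SE 0.14, adjusted p = 5.94e-06). Their promoters are the first and second of the sequences above, and the DKO1 values of each gene were closely spaced.

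ZNF773 and ZNF549 are next to each other and were released to similar levels. ZNF773 was at 0.08, 0 and 0 TPM in WT and at 5.51, 6.37 and 8.75 TPM in DKO1 (log2 fold change 2.92, SE 0.18). ZNF549 was at 0 in all 3 WT samples and at 5.63, 5.64 and 6.88 TPM in DKO1 (2.81, SE 0.14). Further toward the telomere, ZNF606 stood at 0, 0 and 0.02 TPM in WT and at 3.17, 3.98 and 4.26 TPM in DKO1 (2.25, SE 0.14). The SCAN domain gene ZSCAN18, described as methylated in gastrointestinal tumours, was listed at 0 in WT and at 2.88, 2.12 and 4.41 TPM in DKO1 (2.01, SE 0.21). ZNF583 was also at 0 in WT and at 2.99, 2.94 and 3.05 TPM in DKO1 (2.00, SE 0.12), and ZNF418 at 0 in WT and at 1.55, 2.88 and 2.94 TPM in DKO1 (1.76, SE 0.19). For these 6 genes the limma adjusted p lay between 1.5e-05 for ZNF549 and 0.00046 for ZNF418. All 8 genes of this class were set apart by their levels in both lines and passed the filter only through DKO1. Their separation from WT and their adjusted p are therefore descriptions.

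ZNF550 started just above the silent range, and ZNF530 between that range and 1 TPM. ZNF550 rose from 0.04, 0.09 and 0.13 TPM to 5.67, 7.5 and 7.94 TPM (log2 fold change 2.88, SE 0.16, adjusted p = 2.39e-05). ZNF530 rose from 0.62, 0.45 and 0.89 TPM to 11, 9.75 and 11.6 TPM, 16.5-fold by the means (log2 fold change 2.84, SE 0.17, adjusted p = 2.67e-05). The lowest DKO1 value of each gene was several times its highest WT value, but both genes passed the filter only through their DKO1 levels.

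Another 8 genes silent in WT became detectable in DKO1 without reaching 1 TPM in every sample. The most expressed of these were ZFP28, at 0, 0.01 and 0.01 TPM in WT and 1.06, 1.53 and 0.97 TPM in DKO1, and ZNF582, at 0, 0 and 0.03 TPM in WT and 0.82, 1.13 and 1.17 TPM in DKO1. ZNF470 reached 0.85, 0.85 and 0.95 TPM and ZNF667 0.73, 0.68 and 0.71 TPM. ZNF71, ZNF471, ZNF671 and ZNF135 stayed at 0.4 TPM or below in every DKO1 sample. None passed the filter on low values. The 8 were set apart by their levels in both lines, so their separation from WT is a description. With no filter, 27 of 45 tested members were called higher, against 14.9% of all genes tested in that way, and ZNF671 was not among them (limma adjusted p = 0.0626).

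The other 4 genes, ZSCAN4, ZNF154, ZNF835 and ZSCAN1, were silent in both lines. ZSCAN4, a gene of the cleavage-stage embryo linked to telomere maintenance, was at 0.03, 0.05 and 0.03 TPM in DKO1 and at 0, 0 and 0.03 TPM in WT. ZNF154, whose promoter is described as methylated in many tumour types, was at 0.06, 0.05 and 0.02 TPM in DKO1 and at 0.03, 0 and 0 TPM in WT. ZSCAN1 was listed at 0 in all 6 samples. The groups of these 4 genes overlapped, and their levels were too near 0 for a comparison. Of 12 measured genes that accompany ZSCAN4 in the early embryo, all were at 0 in WT, and 6 had every DKO1 sample above WT. This compares with 13.3% of all human genes and 28.3% of protein-coding genes. With WT at 0, any DKO1 values above 0 are enough for this. The cyclin gene CCNA1 was the only one to pass the filter on low values and was called higher, from 0 to 2.27, 2.1 and 2.1 TPM (log2 fold change 1.66). CCNA1 passed only through its DKO1 levels, so its call is a description. The others stayed below 1 TPM in every sample, the highest being TRIM49 at 0.95, 0.84 and 0.71 TPM in DKO1.

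A list of 8 members with promoter methylation described in tumours (ZNF582, ZNF671, ZNF154, ZSCAN18, ZNF471, ZNF667, ZNF135 and ZIK1) was silent in WT without exception. The list was chosen with earlier results of these data known, so its silence in WT is a description. In DKO1 the range of the 8 genes was wide, since ZIK1 and ZSCAN18 were expressed, ZNF582 and ZNF667 were near 1 TPM, and ZNF154 was silent. For 7 of the 8 every DKO1 sample lay above every WT sample, as for 16 of all 20 members silent in WT. This compares with 13.3% of all human genes and 28.3% of protein-coding genes. Where WT levels are this low, small DKO1 values are enough to separate the groups, so these counts are descriptions. Of all members 43.5% were silent in WT, and of protein-coding genes 29.4%.

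Silence followed by expression was not limited to this band. Among all protein-coding genes, 29.4% were silent in WT, and 5% of those silent genes were expressed in DKO1. For the 46 genes here the values were 43.5% silent and 40% of the silent ones expressed in DKO1. For 214 other zinc finger genes of chromosome 19 they were 43% and 40.2%, and for 287 zinc finger genes on other chromosomes 19.2% and 34.5%. The chromosome 19 group holds zinc finger genes that are not members, including those of this band, here and in what follows. The share of silent genes that became expressed was thus close to that of the other zinc finger groups and above that of protein-coding genes. These shares were not tested against each other.

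The 24 genes expressed in WT passed the filter through their WT level alone, so their calls do not depend on a rise in DKO1. Of these 24, 10 were called higher, 0 lower and 14 were not called. Of 11581 tested genes expressed in WT, 11.8% were called higher and 11.3% lower. For 87 other tested zinc finger genes of chromosome 19 that were expressed in WT, the counts were 9 higher and 12 lower (10.3% and 13.8%). This group includes non-members of the band. For 192 on other chromosomes the counts were 11 higher and 29 lower (5.73% and 15.1%). The members thus had 41.7% of their expressed genes called higher. Their median log2 fold change was 0.37, against −0.10 for each of the other 2 zinc finger groups and −0.0043 for all tested genes expressed in WT.

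**Figure D4:**
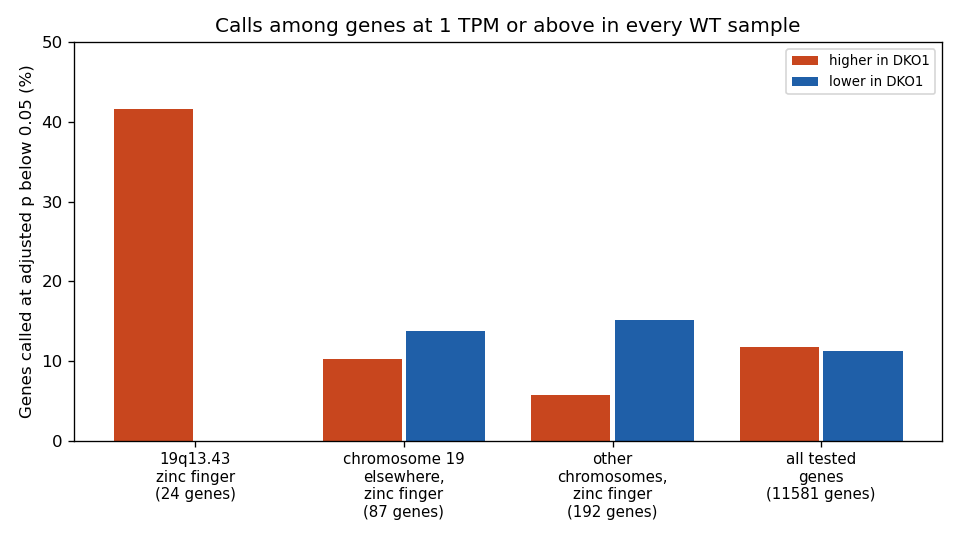
Percent of genes called higher (orange) and lower (blue) in DKO1 among tested genes at 1 TPM or above in every WT sample. Groups are the 19q13.43 members, other zinc finger genes of chromosome 19, zinc finger genes on other chromosomes, and all tested genes. The group labelled as elsewhere on chromosome 19 includes zinc finger genes of the band that are not members. The bars for 19q13.43 stand at 41.7% and 0%, and those of all tested genes at 11.8% and 11.3%; the groups were not tested against each other.

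The largest rises among expressed genes were those of ZNF419 and ZNF772, which are neighbours. ZNF419, known as the source of a minor histocompatibility antigen, rose 7.54-fold from 1.33, 2.04 and 1.94 TPM to 11.6, 13.3 and 15.1 TPM (log2 fold change 2.38, SE 0.18, adjusted p = 7.93e-05). ZNF772 rose 5.5-fold from 1.71, 1.89 and 1.5 TPM to 8.54, 10.2 and 9.31 TPM (1.94, SE 0.15, adjusted p = 9.37e-05). Neither gene was silent in WT, and both had DKO1 values far outside the WT range. ZNF814 rose 4.31-fold from 2.13, 2.29 and 2.7 TPM to 7.51, 8.37 and 14.8 TPM (1.68, SE 0.25, adjusted p = 0.00228), with DKO1 replicate 3 well above the other two.

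ZNF586 rose 3.21-fold, from 1.67, 1.47 and 1.24 TPM to 4.75, 4.83 and 4.48 TPM (adjusted p = 0.000716). ZNF274 rose 2.9-fold, from 7.94, 6.6 and 7.15 TPM to 21, 16.7 and 25.3 TPM (log2 fold change 1.40, SE 0.18, adjusted p = 0.00106). ZNF274 is known to bind the 3′ ends of zinc finger genes and to recruit SETDB1 there, so the gene of a regulator of this family was among those that rose. ZNF416 rose 2.78-fold, from 2.99, 3.04 and 3.08 TPM to 9.4, 7.94 and 8.02 TPM (adjusted p = 0.000697). ZNF304, described as a recruiter of a silencing complex to promoters in colorectal cancer cells, rose 2.56-fold, from 4, 3.56 and 3.45 TPM to 8.86, 8.21 and 11.2 TPM (log2 fold change 1.15, SE 0.17, adjusted p = 0.00192).

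ZNF134 and ZNF211 are next to each other and rose by similar factors. ZNF134 was at 5.69, 5.17 and 6.03 TPM in WT and 12.8, 12.3 and 17.7 TPM in DKO1 (2.53-fold, adjusted p = 0.00235), and ZNF211 at 8.75, 8.32 and 8.42 against 16.5, 16.3 and 21.4 TPM (2.12-fold, adjusted p = 0.00272). ZNF329 had the smallest called rise, 1.74-fold, from 3.54, 3.64 and 2.88 TPM to 5.73, 5.76 and 5.97 TPM (log2 fold change 0.65, SE 0.15, adjusted p = 0.0156). Its groups did not overlap, but its call was lost without WT replicate 2 (adjusted p = 0.05) or 3 (0.0772) and after quantile normalization (0.223).

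The 14 expressed genes without a call included the 3 members with the highest WT levels. ZNF544 was at 28, 33.2 and 35.8 TPM in WT and 36.7, 38.3 and 50.4 TPM in DKO1 (log2 fold change 0.36, SE 0.16, adjusted p = 0.149). ZNF587, which with its near copy ZNF417 is known to bind HERV-K proviruses, was at 21.2, 20.4 and 24.3 TPM in WT and 24.1, 25.2 and 24.2 TPM in DKO1 (0.15, SE 0.12, adjusted p = 0.394). ZNF749 was at 13.3, 14.9 and 14.5 TPM in WT and 12.9, 12.3 and 13.5 TPM in DKO1 (−0.13, SE 0.13, adjusted p = 0.501). The groups overlapped for ZNF587 and ZNF749, whereas all DKO1 values of ZNF544 lay above its WT values.

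The other 11 genes without a call, ZNF264, ZNF805, ZNF460, ZNF543, ZNF547, ZNF548, ZNF17, ZNF551, ZNF776, ZNF552 and ZNF417, had log2 fold changes from −0.40 to 0.40. The lower end was ZNF551, at 14.1, 12.1 and 13 TPM in WT and 8.47, 9.08 and 11.6 TPM in DKO1 (SE 0.16, adjusted p = 0.105). It was the one member with all DKO1 values below all WT values. It was called lower under median-ratio scaling (adjusted p = 0.0464), after quantile normalization (0.0258) and without DKO1 replicate 3 (0.0348). The upper end was ZNF548, at 7.74, 7.72 and 7.45 TPM in WT and 9.29, 10.1 and 11.9 TPM in DKO1 (SE 0.15, adjusted p = 0.0854). Removing mitochondrial genes and spike-ins gave ZNF548 and ZNF544 a call as higher (0.0331 and 0.0483). The remaining 9 genes had an adjusted p of 0.183 or more, which does not show that their levels were equal.

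The same values are given here by position along the chromosome, in RefSeq order. The first 8 genes from the centromere side, ZNF582 to ZNF835, were all silent in WT, and in DKO1 1 of them, ZNF583, was expressed. The next 11, from ZNF264 to ZNF419, were all expressed in WT. Within these, the first 9 genes held a single call, ZNF304, and the last 2, ZNF772 and ZNF419, opened a run of 10 neighbouring members, ZNF772 to ZNF211, that were all called higher. That run held 3 silent genes (ZNF773, ZNF549 and ZIK1), the pair ZNF550 and ZNF530, and 5 genes expressed in WT. The silent genes and the pair passed the filter only through their DKO1 levels, so the length of the run is a description. Of the following 5 members, ZSCAN4 to ZNF776, ZNF551 and ZNF776 were tested and not called, and ZSCAN4, ZNF154 and ZNF671 did not pass the filter. A second silent group of 6, ZNF418 to ZSCAN18, held 4 genes expressed in DKO1, with ZSCAN1 and ZNF135 between them at 0.18 TPM or below. No test was made of these runs.

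The band also holds genes outside the 46. Of 18 other zinc finger genes of 19q13.43, 10 were tested, 1 was called higher and 0 lower (median log2 fold change 0.17). At an unadjusted p below 0.05 limma likewise gave 1 higher and 0 lower. Of all tested genes, 18.8% were called higher and 9.6% lower. The called gene of the 10, ZNF132, went from 0.02, 0 and 0 TPM to 2.06, 2.61 and 1.77 TPM (log2 fold change 1.64), a pattern like that of the released members. Like them, ZNF132 passed the filter only through its DKO1 levels, so its call is a description. None of the 7 that were expressed in WT was called, against 11.8% higher and 11.3% lower of all tested genes expressed in WT, and such short lists cannot be told from these shares. The 18 genes are not members, so the counts given for the 46 do not describe every zinc finger gene of the band. Those with ZNF or ZSCAN symbols were also counted among the other zinc finger genes of chromosome 19. Of 22 measured genes of a list drawn up as non-zinc-finger genes of the band, 8 were tested and 1 was called higher, against 18.8% of all tested genes (2 at an unadjusted p below 0.05, and 0 lower by either), the noncoding ZNF667-AS1, which overlaps ZNF667. It rose from 0.1, 0.15 and 0 TPM to 3.43, 3.14 and 3.83 TPM (log2 fold change 2.04). ZNF667-AS1 also passed the filter only through its DKO1 levels. TRIM28, which lies in this band, was at 148, 80.9 and 134 TPM in WT and 116, 45.8 and 148 TPM in DKO1, with overlapping groups (adjusted p = 0.606). Of the 6 noncoding partners of members named for antisense or divergent transcription, 5 had all DKO1 values above all WT values, against 13.3% of all human genes. The exception was ZNF460-AS1. ZFP28-DT, ZNF470-DT and ZNF582-DT were at 0 in every WT sample, where any DKO1 values above 0 are enough for this. ZNF470-DT was counted at 0.04, 0.04 and 0.02 TPM in DKO1, so the count is a description. Of the members the 6 are named for, ZNF460 was tested and not called, ZFP28, ZNF470, ZNF582 and ZNF667 did not pass the filter, and ZNF8 was not analysed here.

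KRAB zinc finger proteins repress their targets through corepressors, whose genes were measured in the same samples. Of 23 corepressor genes, 6 were called lower, 16 were not called, and the 1 called higher was ZNF274, itself a member. ATRX, a chromatin remodeller of heterochromatin, was at 33, 39.4 and 37.6 TPM in WT and 11.6, 16.8 and 28 TPM in DKO1 (log2 fold change −1.01, SE 0.28, adjusted p = 0.0344). SMARCAD1, a remodeller that binds TRIM28, was at 59.4, 66.5 and 59.5 TPM in WT and 21.9, 34.7 and 44.5 TPM in DKO1 (−0.91, SE 0.24, adjusted p = 0.0269). For both the groups were separate but the DKO1 samples spread widely. SETDB1 was at 38.3, 27.7 and 34.4 TPM in WT and 31.9, 28.7 and 34.2 TPM in DKO1 (adjusted p = 0.763). The count of 6 lower genes rested on single samples, with 1 without WT replicate 1, 0 without WT replicate 2 or 3, and 2 and 3 without DKO1 replicates 1 and 2. It was 3 with no filter on low values. All 23 were expressed in WT, where 11.3% of tested genes were called lower and 11.8% higher.

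Promoter windows of 300 bases, 250 before and 50 after the annotated start, were found in RefSeq for 41 of the 46 genes, and not for ZFP28, ZNF417, ZNF471, ZNF552 and ZNF211. They held a median of 21 CpG, against 14 over all 35116 windows of the table, 20 in other zinc finger genes of chromosome 19 and 24 in those on other chromosomes. The 21 windows of genes expressed in WT had a median of 20 CpG (12 to 31), and the 18 windows of silent genes a median of 27.5 (2 to 42). Within the silent genes, the 8 that were expressed in DKO1 had a median of 25.5 CpG (13 to 36), the 6 that stayed low 30.5 (11 to 42), and the 4 silent in both 21.5 (2 to 42). These ranges overlapped widely, so the count of CpG in this window did not separate released genes from those that stayed silent. Among genes expressed in WT, the 9 called higher had a median of 20 CpG and the 12 not called 20.5.

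**Figure D5:**
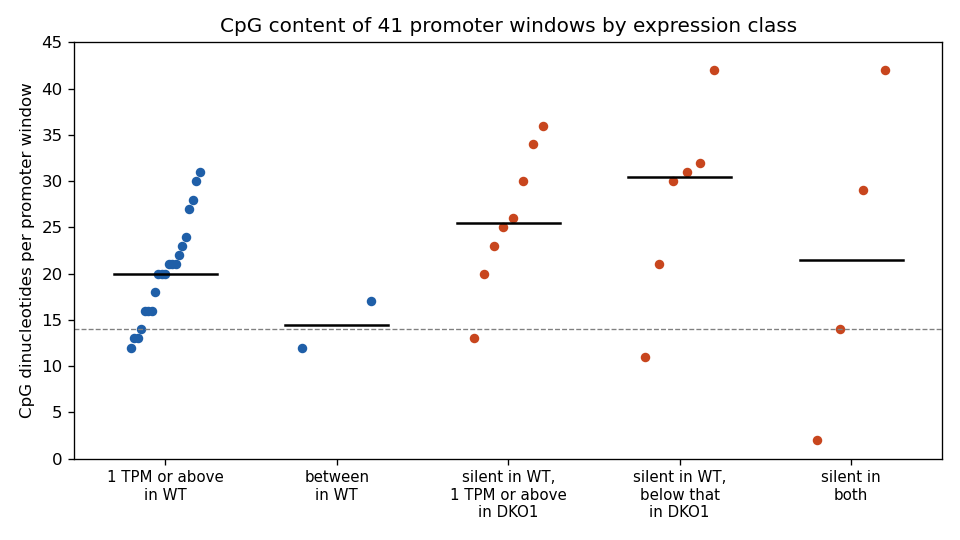
Number of CpG dinucleotides in the 300-base promoter window of 41 genes, grouped by expression class (blue, not silent in WT; orange, silent in WT); each point is a gene, bars are medians, and the dashed line is the median of all RefSeq windows, 14. Medians run from 14.5 to 30.5 CpG and the classes overlap, with ZSCAN4 lowest at 2 and ZNF667 and ZSCAN1 highest at 42.

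A sequence element was shared by many of these windows. CCGGAAGT, the core bound by ETS factors, was found on either strand in 21 of the 41 windows (51.2%), against 4.14% of all windows. It was in 25 of 187 windows of other zinc finger genes of chromosome 19 and in 36 of 243 on other chromosomes. Of the 22 matches in the members, 20 lay on the strand opposite to the gene and 10 lay within 50 bases before the start. In the sequences above it reads acttcCGg near the right end of ZIK1, ZNF671 and ZNF587, and it lies farther from the start in ZNF256. It was present in 13 of 21 windows of genes expressed in WT, in 4 of 8 of silent genes expressed in DKO1, in 2 of 6 of silent genes that stayed low, and in 0 of the 4 silent in both. A second pattern, resembling the site described for ZNF143, was searched after the sequences had been seen. It was found on either strand in 10 of 41 windows (24.4%), against 0.393% of all windows. In other zinc finger genes of chromosome 19 the share was 8.02%, and in those on other chromosomes 2.06%. Both patterns are descriptions of the letters in this window, and related genes share sequence by descent, so their windows are not independent. The cores TGACGTCA (CREB) and TGCGCA were in 2 and 8 windows (4.88% and 19.5%, against 1.85% and 8.24% of all). In other zinc finger genes of chromosome 19 the shares were 2.67% and 19.3%, and on other chromosomes 4.12% and 16%. In the members the longer NRF1 palindrome was in 0 windows (1.24% of all).

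Copies of similar sequence can share reads. In GENCODE release 29, 29.6% of the 75-base stretches of the longest ZNF417 transcript also occurred in ZNF587, and 15.3% of those of ZNF587 in ZNF417. ZNF814 shared 21.1% and ZNF552 12.9% of their stretches with any other gene, so the levels of these 4 are less certain. ZNF17 shared 10.8% and ZNF776 9.5% with a gene that has no family symbol. ZNF419 shared 3.9% with ZNF773, and ZIK1, ZNF256, ZNF549 and ZNF274 shared at most 0.1%. For 13 members another RefSeq gene overlaps the gene, as ZNF667-AS1 does with ZNF667 and TRAPPC2B with ZNF547. Strand use in the counting is not given here, and reads of these overlapping genes cannot be told apart with certainty.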

How the data were processed

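RNA of 6 HCT116 samples (3 WT, 3 DKO1) was read from stranded messenger RNA libraries, per the labels' protocols. The deposited values are TPM per gene that the authors scaled to the same total per sample and rounded to 2 decimals, so depth is unknown. The submitters' processing notes name RSEM 1.2.21, STAR 2.5.3a, edgeR 3.12.1, Trim Galore 0.4.0 and FastQC, with hg19 and GRCh37, without roles. For annotation release and strand setting, the sources used here give nothing.

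Of 57897 rows, 77 spike-in rows stayed out of the tests. Symbols for 89.9% of human rows, gene order and promoters came from reference tables on another build (GRCh38), so hg19 coordinates are not given. Genes were tested on log2(TPM + 1) with limma 3.58.1 (R 4.3.3), fitting genotype alone and letting the variance follow the level. No ratio of TPM is given where a group mean was below 0.5 TPM. Every called member, every member that was silent in one line and expressed in the other, and the 3 uncalled members with the highest level are given per sample, and of other lists up to 3 called genes. Other members named were chosen after their values were seen. The members and lists were chosen with earlier results of these data known. No protein sequences were used here, so the planned description of finger and KRAB domains was not made.

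Same-numbered WT and DKO1 replicates deviated together (correlation of deviations over tested genes 0.35, 0.572 and 0.267 for numbers 1, 2 and 3, and 0.128 or below for other pairs), a pairing seen in the data and not stated in the labels. Fits with the replicate number as a block, other scalings, filters and pseudocounts, and with each sample left out were alternatives. Leave-one-out and scaling fits kept the same 13604 genes.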

Additional observations from a re-analysis of the deposited data

How the results depend on the processing

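All 20 called members kept a positive log2 fold change in each of the 15 alternative fits that tested them, and 19 kept the call in all of them. ZNF329 was the exception. Of the 20, 10 were not expressed in WT and passed the filter only through their DKO1 levels, so for these 10 the kept calls are descriptions. With the replicate number as a block, the 20 members were called again and no call of a named gene changed. The count of members called higher was 11 of 21 with a mean of at least 5 TPM, which leaves fewer genes to test. It was 19 to 20 with a sample left out, and that of members expressed in WT 9 to 10. The count of members called lower, and of members expressed in WT called lower, was 1 under median-ratio scaling and 1 after quantile normalization, and 0 to 1 with a sample left out (1 without DKO1 replicate 3), in each case ZNF551. The count of members silent in WT and expressed in DKO1 was 4 where a WT level of exactly 0 was required and 12 at 0.5 TPM in DKO1 (both added after the data were seen), and 8 to 9 with a sample left out.

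Of all tested genes, 4400 were called higher with no filter and 1145 with a mean of at least 5 TPM. With a sample left out the counts were 1705 to 2842 higher and 524 to 2079 lower. KRAB corepressor genes called lower numbered 3 with no filter and 0 to 7 with a sample left out. The causes of these shifts were not tested. After quantile normalization the median of all genes was −0.066 in place of 0.073 on the log2 scale. Depth is unknown, so differences among members below 0.1 TPM cannot be weighed.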
